A study of Homo sapiens with 24 samples.

Results

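The ST6GALNAC family comprises 6 genes, ST6GALNAC1 to ST6GALNAC6, read by 19 probe sets among the 18132 genes and 44994 single-gene probe sets of the array. The members are all probe sets whose only gene symbol is one of these 6. The family was chosen by the log2 changes of ST6GALNAC5, the lowest of all genes at 25 nM THZ2 in SJSA-1 cells and among the lowest at 100 nM in U2-OS cells. Its values in comparisons that use those arrays are therefore a description, with no test. At the first of them ST6GALNAC5 stood at -1.64, followed by ARHGEF39 at -1.29 and NABP1 at -1.20. At the second it ranked 2 of 16175 genes at -3.42, between PMEPA1 at -3.48 and ZBED5 at -2.83.

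The enzymes of this family work in the Golgi. They transfer sialic acid from CMP-sialic acid to the 6-position of N-acetylgalactosamine on glycoproteins and glycolipids. ST6GALNAC1 and ST6GALNAC2 act on mucin-type O-glycans, and ST6GALNAC1 makes the sialyl-Tn antigen. ST6GALNAC3, ST6GALNAC4, ST6GALNAC5 and ST6GALNAC6 act on chains that already carry a sialic acid on galactose; ST6GALNAC5 is known mainly for making alpha-series gangliosides such as GD1alpha in brain and has been studied in the spread of breast cancer to brain.

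The study measured RNA of U2-OS and SJSA-1, established human osteosarcoma cell lines, on Affymetrix PrimeView arrays after 6 h with THZ2, a covalent inhibitor of the transcriptional kinase CDK7, or with its solvent DMSO. Each line has 4 groups of 3 arrays, DMSO, 25 nM, 100 nM and 400 nM THZ2, making 24 arrays. The labels do not say whether the 3 arrays of a group came from separate cultures, so the p-values measure the spread between these arrays, which may be technical. The labels' treatment text names TRIzol extraction of the cell lines, whereas their extraction text names parietal cortex and a column kit.

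Values are intensities, and changes are log2(intensity + 16), which understates the change of dim probe sets. Where a gene had several probe sets, the 1 brightest on average stood for it, and 16175 genes passed the filter of a group mean of at least 12.73. In each DMSO group 7 of 10 osteoblast and mesenchymal markers reached that intensity, among them RUNX2 and COL1A1, while IBSP did not in any group. The markers were not all the same. With DMSO, SPP1 averaged 435.6 in U2-OS and 10.88 in SJSA-1, COL1A2 8.60 and 309, and TWIST1 6.26 and 213.2. SPP1 and SP7 reached the filter intensity with DMSO in U2-OS alone, and COL1A2 and TWIST1 in SJSA-1 alone. Of 8 epithelial markers 7 reached it in SJSA-1 and 8 in U2-OS with DMSO, so the counts of both lists do not set the lines apart by lineage, although single markers differed. Median intensity was 23.4 to 25.5 on the 12 SJSA-1 arrays, 36.6 to 37.3 on the 3 U2-OS arrays at 400 nM and 33.5 to 34.5 on the other 9 U2-OS arrays. The pattern of exactly shared values places these as 3 sets normalised apart, so every comparison of U2-OS at 400 nM with another group, and every level set between lines, crosses sets. The poly-A spike-in controls, which are commonly added to an RNA sample in a fixed amount, were brighter at 100 and 400 nM than with DMSO. Their mean log2 signal in SJSA-1 was 7.22 with DMSO, 7.28 at 25 nM, 7.67 at 100 nM and 8.18 at 400 nM, and in U2-OS 6.14, 6.17, 6.52 and 6.47 in the same order. At 400 nM in SJSA-1 single arrays ran from 7.51 to 9.06, against 6.86 to 7.53 with DMSO. Centring the arrays on them moved the median change of all genes at 400 nM to -0.86 in SJSA-1, against 0.10 as deposited, and to -0.18 in U2-OS, against 0.15. At 100 nM it was moved to -0.40 in SJSA-1, against 0.06, and to -0.32 in U2-OS, against 0.06.

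ST6GALNAC5 and ST6GALNAC3 are next to each other on chromosome 1 in the RefSeq annotation (GRCh38.p14), with 0 protein-coding genes between them. ST6GALNAC4 and ST6GALNAC6 are neighbours in the same way on chromosome 9, and ST6GALNAC1 and ST6GALNAC2 on chromosome 17. The promoters of the first pair are shown because ST6GALNAC5 chose the family and ST6GALNAC3 is its neighbour. ST6GALNAC3 lay near or under the filter intensity, so its changes cannot be set against those of ST6GALNAC5. They are the 250 bases before the RefSeq start on the plus strand, at chr1:76867230-76867479 for ST6GALNAC5 and at chr1:76074496-76074745 for ST6GALNAC3. Capitals mark matches, on either strand, to the GC box GGGCGG, the CCAAT box, the TATA box motif TATAAA, the E-box CACGTG and the AP-1 motif TGACTCA.
ST6GALNAC5: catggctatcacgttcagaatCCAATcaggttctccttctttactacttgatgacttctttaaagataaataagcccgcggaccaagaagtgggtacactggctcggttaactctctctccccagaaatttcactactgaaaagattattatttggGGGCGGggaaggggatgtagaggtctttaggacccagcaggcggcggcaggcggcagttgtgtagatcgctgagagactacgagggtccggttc
ST6GALNAC3: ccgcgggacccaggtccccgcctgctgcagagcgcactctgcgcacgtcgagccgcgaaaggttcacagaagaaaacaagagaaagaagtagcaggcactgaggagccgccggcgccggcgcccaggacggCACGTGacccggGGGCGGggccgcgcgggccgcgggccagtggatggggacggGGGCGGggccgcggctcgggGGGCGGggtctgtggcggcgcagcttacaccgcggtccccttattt

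The ST6GALNAC5 window held 1 GC box and 1 CCAAT motif and had 49.6% G and C. The ST6GALNAC3 window held 3 GC boxes and 1 E-box and had 73.2%, against a median of 58.0% over all 35114 RefSeq windows of this length. No marked match overlapped another. Of all windows, 42.6% held a GC box, 32% a CCAAT box, 10.7% a TATA box motif, 6.35% this E-box and 4.2% the AP-1 motif. The window of ST6GALNAC4 held 6 GC boxes. Those of the 3 starts of ST6GALNAC6 held 2, 4 and 0, and 1 of them also held 1 CCAAT motif. These matches describe letters only.

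In SJSA-1 cells ST6GALNAC5 was lowest at the lowest dose and higher at each dose above it. Its intensity on the 3 arrays of each group was 62.2, 47.5 and 63.1 with DMSO. It was 7.73, 5.31 and 9.92 at 25 nM THZ2, and 15.0, 13.6 and 17.1 at 100 nM. At 400 nM it was 38.1, 32.7 and 29.9. The groups did not overlap, and their order was DMSO, 400 nM, 100 nM and 25 nM with the last at the bottom. All 3 arrays at 25 nM lay under the filter intensity, so the mean of 7.65 ± 2.30, against 57.6 ± 8.77 with DMSO (SD, n = 3 each), was at least 4.53-fold lower. The means were 26.5% of DMSO at 100 nM and 58.2% at 400 nM.

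The step between the upper doses was tested, since none of its 6 arrays entered the values that chose the gene. ST6GALNAC5 rose in SJSA-1 to 33.5 ± 4.17 at 400 nM, against 15.3 ± 1.77 at 100 nM (SD, n = 3 each), a log2 change of 0.66 (SE 0.094, limma adjusted p = 2.78e-06). Of all genes, 14.9% rose in this comparison, and ST6GALNAC5 ranked 127 of 16175 from the largest rise. All 5 of its probe sets were higher, by 0.13 to 0.78, and 4 of them rose, against 11.2% of all probe sets. With arrays centred on the spike-in controls the change was 0.15 and did not pass, and the change at 100 nM against 25 nM, 0.41 as deposited, was 0.02. That centring moved the median change of all genes to -0.45 at the upper step and to -0.35 at the lower one. With it 2 and 26 of all 16175 genes rose at these steps. Without each array in turn the upper step lay between 0.60 and 0.72.

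In U2-OS cells the large step down lay between 25 and 100 nM. ST6GALNAC5 intensity was 646.4, 692.8 and 683.2 with DMSO and 589.0, 581.9 and 572.4 at 25 nM. It was 50.7, 50.4 and 44.6 at 100 nM, and 40.4, 36.5 and 30.6 at 400 nM. The order was therefore DMSO, 25 nM, 100 nM and 400 nM, with no overlap between neighbours, although the 400 nM arrays belong to another normalisation set. The means were 86.2% of DMSO at 25 nM, 7.20% at 100 nM and 5.31% at 400 nM, which is 13.9-fold lower at 100 nM and 18.8-fold lower at 400 nM. Among all genes, ST6GALNAC5 ranked 158 from the lowest change at 25 nM and 2 at both higher doses, with log2 changes of -0.21, -3.42 and -3.74 (SE 0.094). At 100 nM against 25 nM it had the lowest change of all genes, -3.21. Fewer transcripts in every cell and fewer cells carrying the transcript cannot be told apart in these bulk samples.

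**Figure D1:**
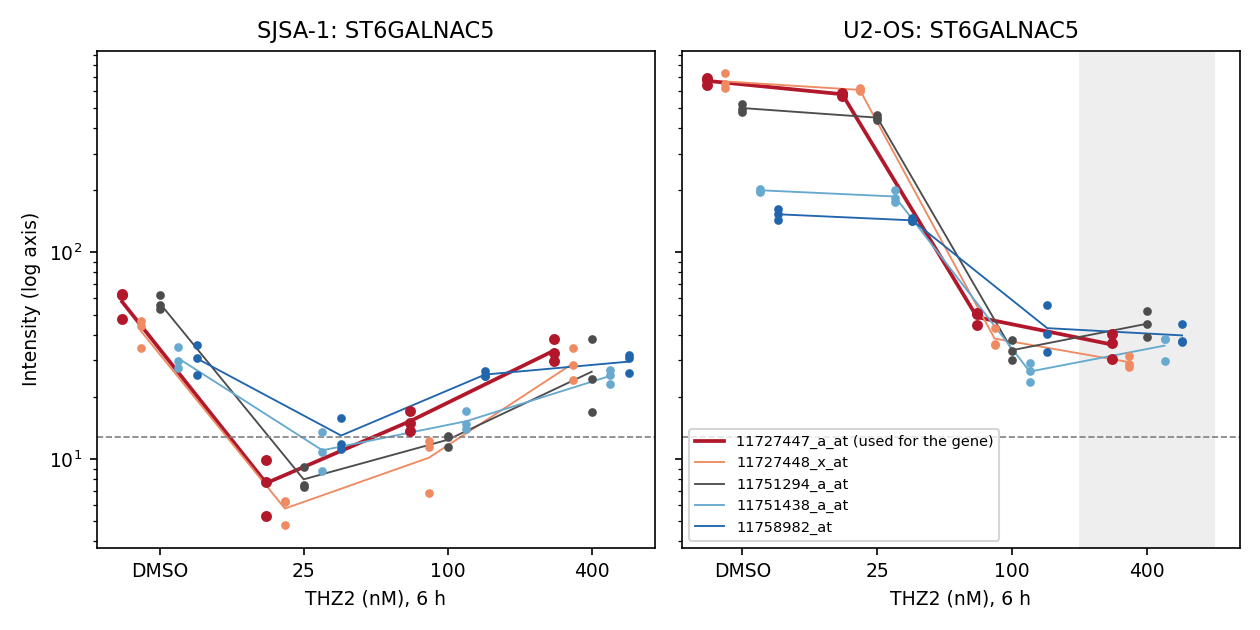
Intensity of the 5 ST6GALNAC5 probe sets on a log axis, by THZ2 dose, in SJSA-1 (left) and U2-OS (right). Points are single arrays (3 per group) and lines join group means; the dashed line is the filter intensity of 12.73, and the grey band marks the U2-OS arrays at 400 nM, normalised apart. The thick line, the probe set used for the gene, is lowest at 25 nM in SJSA-1 and drops between 25 and 100 nM in U2-OS; levels of different probe sets cannot be compared.

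Set between the lines, the change in SJSA-1 minus that in U2-OS was -1.43 at 25 nM, 2.19 at 100 nM and 3.17 at 400 nM. The order of the lines turned between the lowest dose and the 2 doses above it. With DMSO the gene averaged 57.6 ± 8.77 in SJSA-1 and 674.1 ± 24.5 in U2-OS (SD, n = 3 each), values from sets normalised apart. With an offset of 16, the lower start in SJSA-1 leaves less room for a fall on the log2 scale. Even with no signal left, SJSA-1 could not have matched the U2-OS falls at 100 and 400 nM. The sign of those differences was therefore fixed by the starting level. As a share of the DMSO mean, intensity at 400 nM was 58.2% in SJSA-1 and 5.31% in U2-OS.

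All 5 ST6GALNAC5 probe sets were lower than with DMSO in all 6 dose comparisons, but by different amounts. Their log2 changes in SJSA-1 ran from -1.64 to -0.68 at 25 nM, from -1.36 to -0.16 at 100 nM and from -0.81 to -0.03 at 400 nM. In U2-OS they ran from -0.21 to -0.09 at 25 nM, from -3.66 to -1.53 at 100 nM and from -3.91 to -1.60 at 400 nM. The smallest changes at 100 and 400 nM in both lines belonged to 11758982_at, whose SJSA-1 arrays at both doses overlapped those with DMSO. The SJSA-1 arrays of 11727448_x_at also overlapped those with DMSO at 400 nM. At 25 and 100 nM they all lay under the filter intensity. In U2-OS, 11751294_a_at averaged 45.1 at 400 nM, against 33.6 at 100 nM, and 11751438_a_at averaged 35.4, against 26.5, so their order of these groups was turned. Over all alternative settings other than leaving out arrays, the gene's change in SJSA-1 stayed between -2.78 and -0.76 at 25 nM, -1.84 and -0.62 at 100 nM and -1.53 and -0.32 at 400 nM. In U2-OS it stayed between -3.80 and -2.71 at 100 nM and between -4.21 and -2.88 at 400 nM.

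Because the gene is known from brain and the labels' extraction text names brain cortex, nervous tissue markers were set beside it. The summed intensity of the 11 markers measured was, per array in SJSA-1, 173.4 to 187.7 with DMSO, 178.7 to 218.4 at 25 nM, 211.5 to 231.2 at 100 nM and 224.9 to 255.5 at 400 nM. In U2-OS it was 791.9 to 837.4 with DMSO, 805.5 to 840.1 at 25 nM, 879.2 to 930.2 at 100 nM and 1061 to 1155 at 400 nM. The sum was highest at 400 nM in both lines. That of 8 blood and immune markers was also higher there, at 208.8 to 224.5 at 400 nM, against 147.2 to 164.3 with DMSO, in SJSA-1 and at 263.7 to 292.3, against 220.8 to 230.5, in U2-OS. The sums of 8 epithelial markers overlapped between 400 nM and DMSO, at 4195 to 4879 against 3539 to 4715 in SJSA-1 and at 3023 to 3355 against 3096 to 3219 in U2-OS. The higher sum was thus not particular to the nervous list, and its part in the ST6GALNAC5 values was not tested. In the DMSO groups 5 of 11 markers reached the filter intensity in SJSA-1 and 9 of 11 in U2-OS. The astrocyte water channel AQP4 stayed under it in all 8 groups, with a highest group mean of 7.28. GFAP and SLC1A2, also astrocyte markers, lay above it in all 8 groups. With DMSO, GFAP averaged 35.68 in SJSA-1 and 84.25 in U2-OS, and SLC1A2 averaged 18.87 and 48.49. NEFL, a neurofilament, averaged 418.4 with DMSO in U2-OS and made up much of the sum there.

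Of the other 5 members, ST6GALNAC2 did not pass the filter, with all 24 arrays under 12.73 and a highest group mean of 6.50. The other 4 passed, and 11 of their 13 probe sets did. At 25 nM limma called 0 of 4 in either line, and 0 had an unadjusted p under 0.05; over all genes 8.26% were called in SJSA-1 and 0.0804% in U2-OS. Without SJSA-1 DMSO replicate 1, ST6GALNAC4 passed there at -0.30. At 100 nM, 1 of 4 was called in each line, a rise, against 49.4% of all genes in SJSA-1 and 42% in U2-OS. Without U2-OS 100 nM replicate 1 a second, ST6GALNAC3, passed in U2-OS at 0.15. At 400 nM, 3 of 4 rose in SJSA-1, where 66.4% of all genes were called and 41.4% rose. In U2-OS at 400 nM, 3 of 4 rose and 1 fell, where 73.3% were called, 48.4% rose and 25% fell. With 4 genes these shares lie near those of all genes. Every rise in SJSA-1 turned negative with spike-in centring, as did those of ST6GALNAC1 in U2-OS. At 400 nM in SJSA-1 the call itself was turned, since 4 of 4 passed as falls with that centring, among them ST6GALNAC6 at -0.59. With it 14894 of all 16175 genes fell there and 5 rose, so 4 of 4 lies near the share of all genes.

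ST6GALNAC6, which makes alpha-series gangliosides, had the largest rise of these 4 genes in each line. Its intensity in SJSA-1 was 36.0, 39.1 and 41.1 with DMSO, 30.3, 38.6 and 36.5 at 25 nM, 48.5, 58.9 and 45.9 at 100 nM and 54.2, 62.7 and 48.2 at 400 nM. In U2-OS it was 28.9, 28.1 and 26.9 with DMSO, 28.5, 24.5 and 29.3 at 25 nM, 33.2, 36.3 and 31.3 at 100 nM and 43.4, 57.1 and 50.3 at 400 nM. All arrays at 100 and 400 nM lay above the DMSO arrays of their line. Its log2 change in SJSA-1 was 0.29 at 100 nM (SE 0.088, adjusted p = 0.00792) and 0.37 at 400 nM (adjusted p = 0.000723), turning to -0.16 and -0.59 with spike-in centring. The rise at 100 nM was lost without SJSA-1 100 nM replicate 2, at 0.21. In U2-OS it was 0.17 at 100 nM (adjusted p = 0.112) and 0.59 at 400 nM (adjusted p = 1.18e-06), where spike-in centring left 0.26, which did not pass. Of its 3 probe sets all were higher at 100 and 400 nM in both lines, and 2 rose at 400 nM in each, where 36% of all probe sets rose in SJSA-1 and 48.4% in U2-OS. In SJSA-1 at 100 nM 2 rose as well, against 25.2%.

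ST6GALNAC4, which adds the second sialic acid of the disialyl-T antigen on O-glycans, rose only at 400 nM among the doses tested. Its intensity in SJSA-1 was 398.9, 455.1 and 333.1 at 400 nM, against 238.9, 377.4 and 349.7 with DMSO, and these ranges overlapped. The log2 change was 0.30 (SE 0.11, adjusted p = 0.0216) and -0.67 with spike-in centring. This call depended on single arrays: the change was 0.11 without SJSA-1 DMSO replicate 1, 0.29 without 400 nM replicate 1 and 0.20 without 400 nM replicate 2, and none of these passed. In U2-OS the intensity was 424.4, 423.3 and 423.8 at 400 nM, against 331.2, 303.1 and 327.9 with DMSO, with no overlap. The log2 change was 0.39 (adjusted p = 0.00313) and 0.05 with spike-in centring. The 5 probe sets disagreed there, since 4 rose and 11739181_a_at fell by 0.24, as did 22.7% of all probe sets. In SJSA-1 4 of 5 rose and all were higher. The probe set used and 2 others carry suffixes that mark matches to several transcripts, so their signal may be shared.

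ST6GALNAC1, the sialyl-Tn synthase, was dim. In SJSA-1 it read 15.6, 13.2 and 13.5 at 400 nM, against 9.78, 11.5 and 11.9 with DMSO, a log2 change of 0.15 (SE 0.057, adjusted p = 0.0192). All 3 DMSO arrays lay under the filter intensity, so the level at 400 nM was at least 1.11-fold higher. The arrays did not overlap, but the rise was lost without DMSO replicate 1 or 400 nM replicate 1, at 0.12 each, and was -0.81 with spike-in centring. In U2-OS it read 27.5, 26.5 and 25.5 at 100 nM, against 21.9, 19.9 and 21.7 with DMSO. That was a change of 0.19 (adjusted p = 0.00755), and of -0.19 with spike-in centring. At 400 nM in U2-OS the change was 0.18 (adjusted p = 0.00628), and -0.15 with spike-in centring. Its second probe set did not pass the filter.

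ST6GALNAC3, a ganglioside sialyltransferase, lay near or under the filter intensity, and its probe sets differed in direction. In U2-OS at 400 nM, 11753318_a_at fell to 11.9, 8.84 and 12.3, against 13.1, 14.2 and 13.6 with DMSO, by 0.13 on the log2 scale (SE 0.048, adjusted p = 0.0146). All 3 arrays at 400 nM lay under the filter intensity, so this was at least 1.07-fold lower. The other tested probe set, 11728769_at, read 15.5, 13.8 and 12.9 at 400 nM, against 7.86, 7.03 and 6.65 with DMSO, at least 1.11-fold higher. It passed the filter through that group alone, so its change of 0.38 is a description, with no test. With the mean of its probe sets the gene's change was 0.12, so no direction holds for the gene. The fall was also lost without U2-OS DMSO replicate 2, at -0.12, and without 400 nM replicate 2, at -0.08. In SJSA-1 all 12 arrays of both probe sets lay under the filter intensity, so no direction is read there.

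Of the 12 tests of a difference between the lines among these 4 genes, 1 passed. At 25 and 100 nM limma called 0 of 4, with 0 at an unadjusted p under 0.05, against 1.09% and 16.9% of all genes. At 400 nM it called ST6GALNAC3 alone, at 0.19 and with all 12 SJSA-1 arrays under the filter intensity, against 45.9% of all genes called and 14.5% with a positive difference. That difference turned to -0.02 with the mean of its probe sets, and did not pass without U2-OS DMSO replicate 2, at 0.18, or 400 nM replicate 2, at 0.13. At the dose steps, ST6GALNAC1 and ST6GALNAC6 rose in SJSA-1 at 100 nM against 25 nM (0.14 and 0.39), where 41.6% of all genes were called and 18.6% rose. That of ST6GALNAC1 was at least 1.04-fold, with its 25 nM mean under the filter intensity, and was lost without SJSA-1 25 nM replicate 1, at 0.10, 100 nM replicate 1, at 0.12, or 100 nM replicate 3, at 0.11. ST6GALNAC1 and ST6GALNAC3 rose in U2-OS at 100 nM against 25 nM (0.24 and 0.15), where 48.1% were called and 24.8% rose. The rise of ST6GALNAC3 was lost without U2-OS 100 nM replicate 3, at 0.11. With spike-in centring ST6GALNAC6 kept 0.01 and the other 3 changes turned negative. In SJSA-1 limma called 0 of 4 between 400 and 100 nM, with 1 at an unadjusted p under 0.05, against 26.6% of all genes. That gene, ST6GALNAC4, passed at 0.39 without 400 nM replicate 3.

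**Figure D2:**
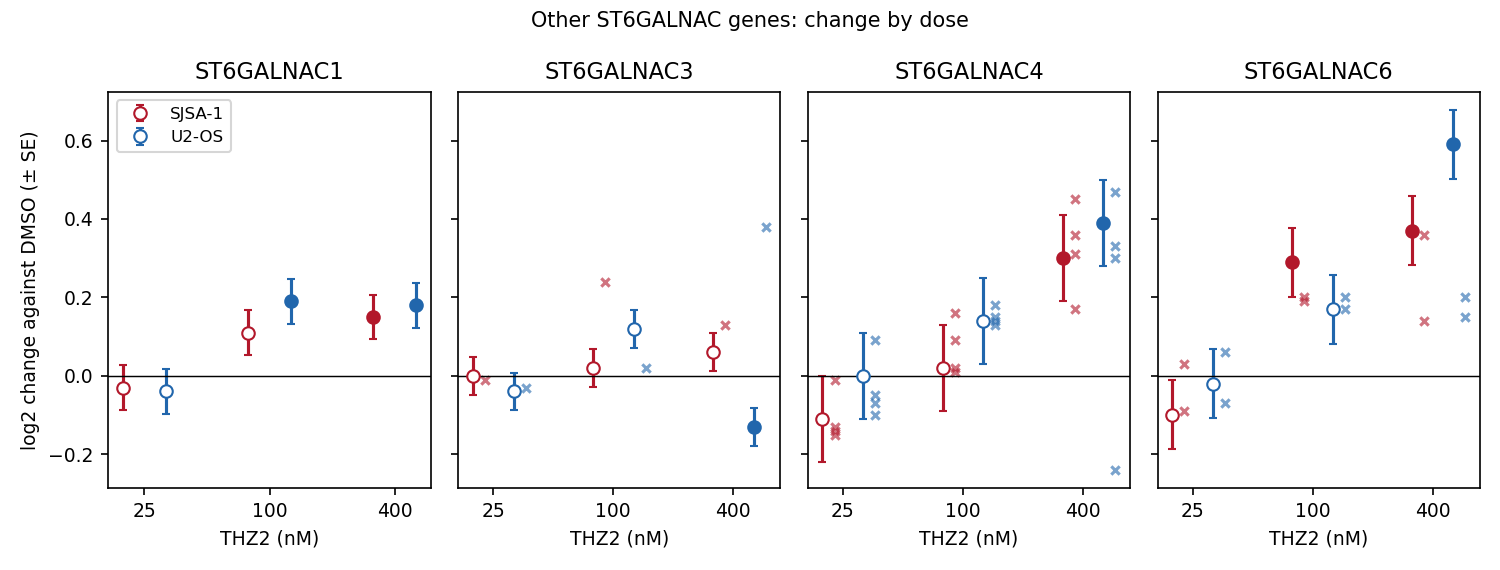
Log2 change against DMSO (± SE) of the 4 other tested members by THZ2 dose, SJSA-1 in red and U2-OS in blue. Filled circles passed the test (adjusted p under 0.05), open circles did not, and crosses are a gene's other tested probe sets. Circles lie between -0.13 and 0.59, and 1 cross of ST6GALNAC4 lies at -0.24; with spike-in centring all SJSA-1 rises and those of ST6GALNAC1 in U2-OS turn negative.

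The genes that supply, compete with or remove the products of these enzymes were read from 6 lists with 59 measured genes, 51 of them tested. They were called in 6, 30 and 31 cases in SJSA-1 at 25, 100 and 400 nM, and in 0, 20 and 38 cases in U2-OS, where 1 gene had an unadjusted p under 0.05 at 25 nM. Of all genes 8.26%, 49.4% and 66.4% were called in SJSA-1 and 0.0804%, 42% and 73.3% in U2-OS, so the shares of the 51 lie near those of all genes. All 6 calls in SJSA-1 at 25 nM were falls, where 6.28% of all genes fell, and 0 of 51 passed there with spike-in centring. With that centring 2 of all 16175 genes rose and 5 fell there, so not passing tells little about a single gene. The median change of the 51 genes was 0.18 in SJSA-1 and 0.25 in U2-OS at 400 nM, against 0.10 and 0.15 over all genes.

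Most genes of sialic acid synthesis and transport fell at 100 nM. At that dose 5 of 6 fell in SJSA-1, and 5 of 6 fell and 1 rose in U2-OS, where 25.1% and 22.2% of all genes fell. The median change of the 6 was -0.42 in SJSA-1 and -0.94 in U2-OS. At 400 nM 2 of 6 fell in SJSA-1, with a median of -0.04, and 4 fell and 2 rose in U2-OS, with a median of -0.40, where 24.9% and 25% of all genes fell. At 25 nM 2 of 6 fell in SJSA-1, and limma called 0 of 6 in U2-OS, with 0 at an unadjusted p under 0.05. NANP, the phosphatase of the last step of sialic acid synthesis, read 39.9, 66.3 and 58.9 at 100 nM in SJSA-1, against 188.7, 194.0 and 159.8 with DMSO. In U2-OS it read 123.4, 130.9 and 125.3 at 100 nM, against 334.9, 353.1 and 354.5 with DMSO. No array overlapped in either line. It fell by 1.48 (SE 0.12, adjusted p = 2.65e-11) in SJSA-1 and by 1.35 (adjusted p = 2.47e-10) in U2-OS at 100 nM, and by 2.52 and 1.87 at 400 nM, on 2 of its 3 probe sets. Of all probe sets 22.5% fell in SJSA-1 and 18.9% in U2-OS at 100 nM. GNE, the enzyme of the first committed step, fell by 1.60 in SJSA-1 and by 1.11 in U2-OS at 100 nM, though on 1 of its 3 probe sets in each. SLC35A1, which carries CMP-sialic acid into the Golgi, fell by 1.14 in U2-OS at 100 nM. CMAS, which makes CMP-sialic acid, fell by 0.45 in SJSA-1 at 100 nM and by 0.27 at 25 nM, where it stood at -0.34 with spike-in centring and did not pass. NANS, the synthase before NANP, rose in U2-OS at 100 nM by a change of 0.33, which turned negative with spike-in centring.

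Among the 14 other sialyltransferases, 9 were tested and ST3GAL1 moved most. ST3GAL1 makes the sialylated core 1 chain on which ST6GALNAC4 acts. Its intensity in SJSA-1 was 104.7, 97.0 and 91.1 with DMSO, 117.0, 112.2 and 99.0 at 25 nM, 20.7, 26.5 and 16.4 at 100 nM and 41.1, 36.0 and 39.1 at 400 nM. In U2-OS it was 203.6, 206.8 and 203.7 with DMSO, 187.9, 183.8 and 197.5 at 25 nM, 42.9, 46.8 and 30.9 at 100 nM and 52.5, 72.4 and 75.8 at 400 nM. The arrays at 100 and 400 nM lay below all DMSO arrays in both lines, and the lowest group was 100 nM in each. It fell by 1.62 (SE 0.11, adjusted p = 7.57e-13) in SJSA-1 and by 1.98 (adjusted p = 1.71e-14) in U2-OS at 100 nM, and by 1.05 and 1.42 at 400 nM, on all 4 of its probe sets. Unlike ST6GALNAC5, which stood at -1.64, it had a change of 0.14 in SJSA-1 at 25 nM. Its difference between the lines at 100 nM was 0.37 (adjusted p = 0.114). It rose by 0.56 in SJSA-1 between 400 and 100 nM (adjusted p = 0.000229), but with spike-in centring it stood at -2.02 at 400 nM and -2.07 at 100 nM against DMSO.

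ST3GAL5, the synthase of the ganglioside GM3, fell at 100 nM in both lines, by 0.38 in SJSA-1 and by 0.55 in U2-OS. In each line 1 of its 2 probe sets rose there while the other fell. ST3GAL3 fell in SJSA-1 by 0.44 at 25 nM (adjusted p = 0.000624) and by 0.41 at 100 nM; with spike-in centring it stood at -0.50 at 25 nM, which did not pass, and at -0.86 at 100 nM, which did. ST6GAL1, which sialylates N-glycans, fell by 0.40 in SJSA-1 at 100 nM and rose in U2-OS at 400 nM with a change of 0.52, on 2 of 3 probe sets while the other fell. That rise became 0.19 with spike-in centring and did not pass. ST3GAL2 rose in U2-OS at 400 nM by a change of 0.24 (adjusted p = 0.0481), which turned to -0.10 with spike-in centring. ST3GAL4, ST8SIA2, ST8SIA3 and ST8SIA5 were not called in any of the 6 dose comparisons. The remaining 5, ST3GAL6, ST6GAL2, ST8SIA1, ST8SIA4 and ST8SIA6, did not pass the filter.

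Of 5 genes of ganglioside core synthesis, 1 rose and 2 fell in SJSA-1 and 1 rose and 1 fell in U2-OS at 100 nM. At that dose 24.4% of all genes rose and 25.1% fell in SJSA-1, and 19.8% rose and 22.2% fell in U2-OS. With 5 genes these counts lie near the shares of all genes. B4GALT5, a lactosylceramide synthase, fell at 100 nM by 1.11 in SJSA-1 (adjusted p = 4.38e-10) and by 1.42 in U2-OS (adjusted p = 3.94e-12), on 1 of its 3 probe sets in each. B4GALNT1, the GM2 and GD2 synthase, averaged 426.7 ± 51.0 at 25 nM in SJSA-1, against 627.3 ± 71.3 with DMSO (SD, n = 3 each), and fell by 0.54 (adjusted p = 0.000363); with spike-in centring it stood at -0.61 and did not pass. In U2-OS it rose at 400 nM by a change of 0.26, which turned to -0.07 with spike-in centring. UGCG, which makes glucosylceramide, rose in U2-OS at 100 nM by a change of 0.45 and fell in SJSA-1 at 400 nM by 0.57. With spike-in centring the rise became 0.07 and did not pass.

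Genes listed under ganglioside breakdown, a list that also holds the arylsulfatase ARSA, rose at the upper doses. At 100 nM 4 of 5 rose in each line, where 24.4% of all genes rose in SJSA-1 and 19.8% in U2-OS, and at 400 nM 5 of 5 rose in each, against 41.4% and 48.4%. GM2A, the GM2 activator, had changes of 0.49 in SJSA-1 and 0.42 in U2-OS at 100 nM, and of 0.43 and 1.36 at 400 nM. HEXA, a subunit of beta-hexosaminidase, had 0.44 in SJSA-1 and 1.09 in U2-OS at 400 nM. With spike-in centring 0 of these 5 genes rose in either line at 100 nM and 4 of 5 fell in SJSA-1 at 400 nM, while 2 of 5, GM2A among them at 1.03, still rose in U2-OS at 400 nM. With it 52 of all 16175 genes rose in SJSA-1 and 45 in U2-OS at 100 nM. At 400 nM 14894 fell in SJSA-1 and 472 rose in U2-OS.

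Sialidases and O-acetylation genes were mixed at 100 nM, where in SJSA-1 3 of 6 rose and 1 fell and in U2-OS 1 rose and 1 fell. The counts in U2-OS are near the 19.8% of all genes that rose and the 22.2% that fell, and in SJSA-1 24.4% rose and 25.1% fell. At 400 nM 4 rose and 1 fell in SJSA-1 and 5 rose in U2-OS, where 41.4% and 48.4% of all genes rose. With spike-in centring 0 of 6 rose and 6 fell in SJSA-1 at 400 nM, and 1 rose and 0 fell in U2-OS. CASD1, which O-acetylates sialic acid, fell at 100 nM by 0.95 in SJSA-1 and by 0.63 in U2-OS. SIAE, the esterase that removes those acetyl groups, averaged 57.9 ± 4.80 at 400 nM in U2-OS, against 15.0 ± 1.33 with DMSO (SD, n = 3 each), and rose by a change of 1.25 (adjusted p = 2.07e-11), though on 1 of 2 probe sets. It was 0.92 with spike-in centring and still passed. Of the 20 tested genes for O-glycan initiation and cores, 12 rose and 2 fell in SJSA-1 at 400 nM, and 11 rose and 3 fell in U2-OS, where 41.4% of all genes rose in SJSA-1 and 48.4% in U2-OS. At 100 nM 7 rose and 3 fell in SJSA-1 and 1 rose and 3 fell in U2-OS. GALNT1, an initiating enzyme, had a change of 1.01 in U2-OS at 400 nM, and 0.67 with spike-in centring, which did not pass. C1GALT1, the core 1 synthase, fell by 1.15 in U2-OS at 100 nM, and GCNT1, a core 2 enzyme, fell by 0.99 in SJSA-1 at 400 nM, where 24.9% of all genes fell. With spike-in centring 0 of the 20 rose and 16 fell in SJSA-1 at 400 nM, while 1 rose and 1 fell in U2-OS. Of all 16175 genes, 5 rose and 14894 fell in SJSA-1 at 400 nM with it, and 472 rose and 3085 fell in U2-OS.

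**Figure D3:**
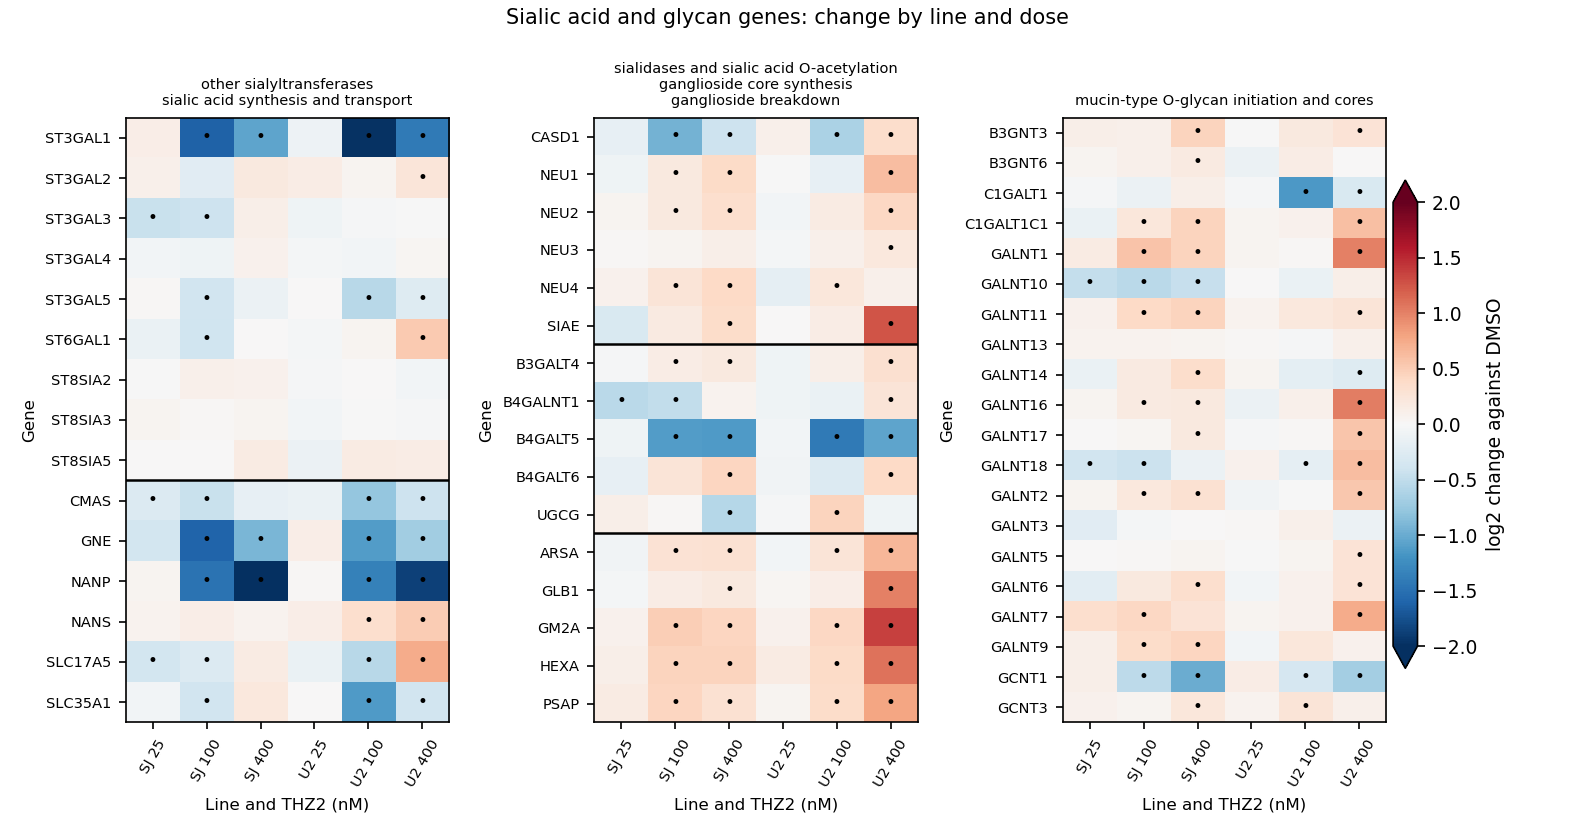
Log2 change against DMSO of the 51 tested genes of the 6 lists (rows, lists in the order of the panel titles and parted by lines), for SJSA-1 (SJ) and U2-OS (U2) at 25, 100 and 400 nM THZ2. Red is higher and blue lower than DMSO, colours saturate at ± 2, and dots mark genes that passed the test. ST3GAL1, NANP and GNE are blue in both lines at 100 and 400 nM and stay so with spike-in centring, whereas with that centring all 23 rises in SJSA-1 at 400 nM turn negative. In that comparison 14894 of all 16175 genes fall with it.

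The genes whose profile was most like that of ST6GALNAC5 over the 24 arrays, as log2 values less the mean of the line's DMSO arrays, were CORO2B (Pearson r = 0.967), LMCD1 (0.964), LETM2 (0.958), GRIP1 (0.948), HERC4 (0.941) and NUP37 (0.941). These arrays share normalisation sets and DMSO means, so the measure is a description. All SJSA-1 group means of GRIP1 lay under the filter intensity, as did those of LMCD1 at every THZ2 dose and that of LETM2 at 100 nM. Their changes there have no reliable size. In SJSA-1 at 25 nM the 6 genes had changes of -0.58 to -0.17, against -1.64 for ST6GALNAC5. In U2-OS at 100 nM they had -1.86 to -0.72, against -3.42. The same measure was -0.60 for ST6GALNAC1, 0.09 for ST6GALNAC3, -0.43 for ST6GALNAC4 and -0.53 for ST6GALNAC6. No other member came near in value. However, ST6GALNAC3 lay under the filter intensity on every SJSA-1 array, and ST6GALNAC1 on every SJSA-1 array with DMSO or 25 nM. For these 2 genes the measure cannot show likeness or its absence.

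**Figure D4:**
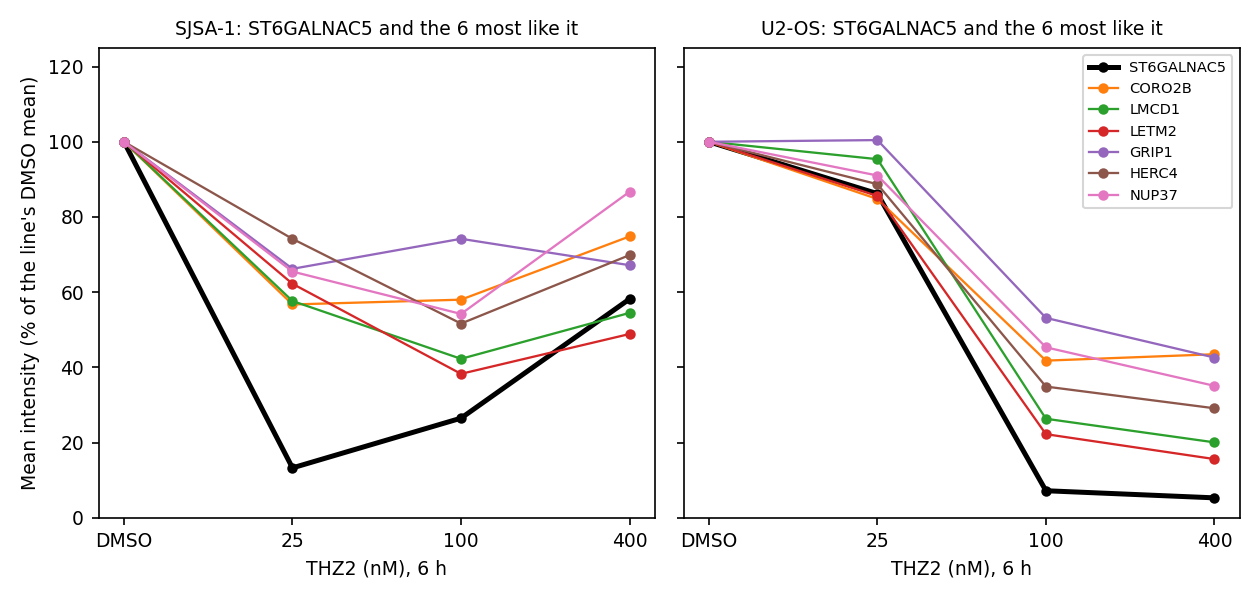
Mean intensity (n = 3 arrays) as percent of the line's DMSO mean, by THZ2 dose, for ST6GALNAC5 (black) and the 6 genes with the most similar profile, in SJSA-1 (left) and U2-OS (right). ST6GALNAC5 is drawn at its measured 13.3% at 25 nM in SJSA-1, which is under the filter intensity and shows only that it was at least 4.53-fold lower, and at 7.20% at 100 nM in U2-OS, below the other 6 genes in each case. In SJSA-1, GRIP1 in every group, LMCD1 at every THZ2 dose and LETM2 at 100 nM are also under the filter intensity.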

How the data were processed

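The authors deposited 1 table of linear intensities for 49372 probe sets on 24 arrays; the submitters' processing notes name both MAS5 and RMA, with no role or version, so the method behind these intensities is unknown, and no genome build is given in the sources used here. From the values, arrays within each of 3 sets shared 0.853 to 5.47% of their values exactly, against at most 0.00405% between sets. Probe sets were named by the platform annotation: 44994 had 1 gene, 1832 several and 2473 none, besides 79 controls.

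One linear model per gene over all 8 groups was fitted to log2(intensity + 16) with limma 3.58.1 in R 4.3.3 (trend, Benjamini-Hochberg over 16175 genes, threshold 0.05, 16 residual degrees of freedom). Genes passed if a group mean reached the 30th percentile, 12.73. An exact permutation test of 3 against 3 arrays cannot go below 0.1. The script was tested on simulated data. Bounds ("at least") set a probe set under the filter at 12.73 or its own value, whichever is higher.

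The members, the 6 lists and the markers were chosen with earlier results of these data known. Text names up to 3 genes per list and comparison in the commoner direction and 1 in the opposite one, among those that passed with all treated arrays outside the DMSO range; all sialyltransferases may be named. Comparisons of a line share its DMSO arrays. Alternatives were 4 other scalings, 2 filters, 2 pseudocounts, all probe sets or their mean, no trend, only the groups compared, a replicate block and leaving out arrays. A change of sign where neither setting passed was not counted as reversed. Some genes of the lists are not reported here. Promoters are RefSeq GRCh38.p14. Windows were found for 4 members, and none was available in the reference used for ST6GALNAC1 and ST6GALNAC2.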

Additional observations from a re-analysis of the deposited data

Results flagged for a closer look

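The effect of 400 nM THZ2 on ST6GALNAC3 differed between the lines by a log2 value of 0.19 (SJSA-1 minus U2-OS, SE 0.068, limma adjusted p = 0.0219), with changes of 0.06 in SJSA-1 and -0.13 in U2-OS. All 3 U2-OS arrays at 400 nM and all 12 SJSA-1 arrays lay under the filter intensity for this probe set, and its second tested probe set differed by -0.25.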

How the results depend on the processing

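With spike-in centring the calls among the 4 other members fell to 0 at 100 and 400 nM in U2-OS, at 100 nM in SJSA-1, for the line difference at 400 nM and for the steps between 100 and 25 nM in both lines, and at 400 nM in SJSA-1 4 of 4 passed as falls. Values that turned sign there were, for ST6GALNAC1, -0.19 and -0.15 in U2-OS at 100 and 400 nM, -0.81 in SJSA-1 at 400 nM, and -0.10 in U2-OS and -0.24 in SJSA-1 between 100 and 25 nM. For ST6GALNAC3 they were -0.91 in SJSA-1 at 400 nM, -0.44 for the line difference at 400 nM and -0.19 in U2-OS between 100 and 25 nM. For ST6GALNAC4 it was -0.67 in SJSA-1 at 400 nM, and for ST6GALNAC6 -0.16 and -0.59 in SJSA-1 at 100 and 400 nM. The pathway calls became 0, 16 and 46 in SJSA-1, all of them falls, and 0, 11 and 11 in U2-OS at 25, 100 and 400 nM. With that centring 2, 52 and 5 of all 16175 genes rose and 5, 4132 and 14894 fell in SJSA-1 at these doses. In U2-OS 0, 45 and 472 rose and 0, 3064 and 3085 fell. The rise of ST6GALNAC5 between 400 and 100 nM in SJSA-1 became 0.15, where the median change of all genes was -0.45 and 2 of them rose. With probe sets averaged per gene, or the median of the probe sets tested singly, ST6GALNAC3 turned to 0.12 in U2-OS at 400 nM, and its line difference to -0.02 or -0.03. The cause of these changes was not tested.

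Calls among the 4 members also moved in other settings. At 100 nM in U2-OS they became 2 (median centring, no filter, pseudocount of 64), 3 (mean of probe sets), 4 (only the groups compared) or 0 (filter at the 50th percentile), against 1. At 100 nM in SJSA-1 they became 2 with median centring or the mean of probe sets, against 1. At 400 nM they became 1 in SJSA-1 with ribosomal centring, against 3, and 2 in U2-OS with the stricter filter, against 4. The line difference at 400 nM became 0 with ribosomal centring, the stricter filter, the mean of probe sets, single probe sets or no trend. The step between 100 and 25 nM in U2-OS became 1 (joint quantile, single probe sets), 0 (stricter filter) or 4 (only the groups compared), against 2. In SJSA-1 that step became 1 with ribosomal centring, the stricter filter, a pseudocount of 64, no trend or only the groups compared. The step between 400 and 100 nM in SJSA-1 became 1 with median centring, the mean of probe sets or the replicate block, against 0. Pathway calls became 3 with single probe sets in SJSA-1 at 25 nM, and 2 at 25 nM and 33 at 100 nM in U2-OS with only the groups compared.

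Leaving out each array in turn, calls among the 4 members ranged from 0 to 1, 1 to 1 and 1 to 3 in SJSA-1 at 25, 100 and 400 nM, from 0 to 0, 1 to 2 and 3 to 4 in U2-OS, from 0 to 1 for the line difference at 400 nM and the step between 400 and 100 nM in SJSA-1, and from 1 to 2 for both steps between 100 and 25 nM. Pathway calls ranged from 4 to 8, 24 to 27 and 29 to 33 in SJSA-1 and from 0 to 0, 18 to 22 and 35 to 37 in U2-OS. Same-numbered replicates did not pair: 8 of 18 pairs in SJSA-1 (r from -0.63 to 0.42) and 9 of 18 in U2-OS (r from -0.08 to 0.33) correlated over 0.1, and the replicate block moved no call count other than the 1 given above. The number of arrays limits the precision, and values under 12.73 have no reliable order.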
